A study of Mus musculus with 6 samples.

Results

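Genes that encode guidance signals of the growing coronary vessels were measured in whole hearts of mouse embryos at e13.5: the ligands Apln and Cxcl12 and the receptors Aplnr, Cxcr4 and Ackr3. They are the 5 rows, of 45792 in the deposited table of read counts, whose gene identifiers carry these symbols, and they were chosen by name and not by their values. The 6 hearts comprised 3 from embryos that the labels call wild-type and 3 from embryos labelled Tie2Cre INO80 flox/flox (mutant hearts below), all of strain C57BL/6 per the labels. The Tie2 promoter drives Cre in the endothelial lineage, which takes in the endocardium and cells descended from it. Ino80, the ATPase subunit of a chromatin remodelling complex, was to be lost in those cells. The paper takes as controls embryos of any genotype but Tie2Cre;Ino80 fl/fl, and its methods describe mixed backgrounds, so control hearts could carry floxed alleles or the Cre. Its methods also state that controls were littermates, but no source used here says which of these 6 embryos shared a litter, so the p-values measure the spread between these hearts.

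Apelin, the peptide made from Apln, and Apela (also called Elabela or Toddler) are the ligands of the G protein-coupled receptor Aplnr. Angiogenic endothelial cells make apelin, and Aplnr marks endothelial cells that sprout from the sinus venosus to build the coronary plexus. Cxcl12 is a chemokine that attracts cells bearing Cxcr4 and is needed for coronary arteries to mature and connect to the aorta, while the atypical receptor Ackr3 binds and clears Cxcl12 without signalling through G proteins. In whole hearts, fewer cells of a type and less RNA per cell cannot be told apart.

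Counts per heart ran from 28948836 to 89675692 over the 6 libraries. The 11 cardiomyocyte genes listed summed to between 23050 and 28700 counts per M counts (CPM, scaled by the TMM method for library composition), and the 6 liver genes to at most 2.75 CPM. All 5 members had enough reads for the test, with between 292 (Cxcr4 in control replicate 1) and 15566 counts (Cxcl12 in mutant replicate 1) in a heart. Ino80 itself had 30.2, 31.6 and 32.8 CPM in control hearts and 36.5, 33.7 and 31.8 in mutant hearts. Its levels thus overlapped, and its log2 fold change of 0.11 (SE 0.082) did not pass the test (quasi-likelihood test of edgeR, Benjamini-Hochberg adjusted p = 0.47). Whole-heart counts therefore did not show the deletion, and the label of each heart stands without a check from its targeted gene. By the paper's methods the floxed allele loses a single exon, while these counts are for the whole gene. In endothelial cells isolated from mutant hearts, the paper reports no detectable Ino80 mRNA by quantitative PCR.

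Short stretches of the coding sequence show the peptide or motif named below for each gene. Those of Apln and Cxcl12 hold sites where peptidases described further on act. They were read 5′ to 3′ from GENCODE vM21 transcripts on GRCm38 and written with T. For Apln the last 13 of 77 codons are shown, those of the active peptide apelin-13, with the codon of the final phenylalanine, where the precursor ends, in capitals (chrX:48028302-48028340, minus strand). The Cxcl12 stretch covers the first 8 codons of the mature chemokine, with the codons of the lysine and proline that Dpp4 cuts off in capitals (chr6:117171484-117171507, plus strand). For Cxcr4 (chr1:128589500-128589520, minus strand) and Ackr3 (chr1:90214241-90214261, plus strand) the 7 codons that open with the DRY motif, by which such receptors contact G proteins, are shown. Capitals in the Ackr3 line mark the codons whose amino acid differs from that of Cxcr4.
Apln: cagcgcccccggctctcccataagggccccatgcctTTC
Cxcl12: AAACCAgtcagcctgagctaccga
Cxcr4: gaccggtacctcgctattgtc
Ackr3: gaccgctatctcTCCatcACC

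Of the ligands, Apln averaged less in mutant hearts and Cxcl12 averaged more, and neither difference passed the adjusted test. Apln (ENSMUSG00000037010.7, chrX:48025146-48034853, minus strand) had 20.7, 31.2 and 31.6 CPM in control replicates 1 to 3 and 21.4, 22.2 and 21.4 CPM in mutant replicates 1 to 3. The mutant hearts lay within 1 CPM of each other, and control replicate 1 lay below all of them while the other control hearts lay well above. Mean levels were 27.8 ± 6.22 CPM in controls and 21.6 ± 0.474 CPM in mutants (SD, n = 3 each). The log2 fold change of Apln was -0.36 (SE 0.155, 95% interval -0.72 to -0.0038, unadjusted p = 0.048), with an adjusted p of 0.25 from edgeR and 0.20 from DESeq2. Without control replicate 1 the change was -0.54 with an edgeR adjusted p of 0.021, so 1 heart decided whether Apln was called lower. That fit called 320 tested genes higher and 431 lower.

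Cxcl12 (ENSMUSG00000061353.9, chr6:117168535-117181367, plus strand) had 183.6, 122.3 and 145.7 CPM in control hearts and 168.3, 189.0 and 169.3 CPM in mutant hearts. Here control replicate 1 was the highest control and lay among the mutants, and control replicate 2 was the lowest of all 6 hearts. The means were 150.5 ± 30.95 CPM in controls and 175.6 ± 11.68 CPM in mutants (SD, n = 3 each). The log2 fold change of Cxcl12 was 0.22 (SE 0.139, 95% interval -0.10 to 0.54), with an adjusted p of 0.40 from edgeR and 0.42 from DESeq2. It ranged from 0.09 without control replicate 2 to 0.39 without control replicate 1.

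The receptors behaved unlike one another. Aplnr and Cxcr4 had nearly equal means in both groups, and Ackr3 averaged 1.38-fold higher in mutant hearts. Aplnr (ENSMUSG00000044338.9, chr2:85136225-85139923, plus strand) had 27.0, 57.1 and 37.9 CPM in control hearts and 35.1, 44.3 and 39.4 CPM in mutant hearts. Both the lowest and the highest heart were controls, and the mutants fell between them. The log2 fold change of Aplnr was -0.04 (SE 0.239, edgeR adjusted p = 0.94). Its 95% interval, -0.59 to 0.51, still allowed a mutant level between 0.666 and 1.43 times that of controls. Differences within that range were therefore not excluded.

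Cxcr4 (ENSMUSG00000045382.6, chr1:128588199-128592293, minus strand) had 7.67, 15.2 and 13.5 CPM in control hearts and 13.1, 10.2 and 12.2 CPM in mutant hearts. Control replicate 1 was again the lowest heart and control replicate 2 the highest. Its log2 fold change was -0.03 (SE 0.234, 95% interval -0.57 to 0.51, edgeR adjusted p = 0.95). For both receptors the sign followed single hearts. Without control replicate 1 the change was -0.26 for Aplnr and -0.28 for Cxcr4, and without control replicate 2 it was 0.29 and 0.17.

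Ackr3 (ENSMUSG00000044337.5, chr1:90203980-90216751, plus strand) had 47.3, 26.0 and 36.7 CPM in control hearts and 54.8, 46.5 and 50.3 CPM in mutant hearts. The groups overlapped only because control replicate 1 lay above mutant replicate 2. Means were 36.7 ± 10.7 CPM in controls and 50.5 ± 4.15 CPM in mutants (SD, n = 3 each). The log2 fold change of Ackr3 was 0.46 (SE 0.191, 95% interval 0.023 to 0.90, unadjusted p = 0.041), with an adjusted p of 0.24 from edgeR and 0.13 from DESeq2. It was 0.69 without control replicate 1 (edgeR adjusted p = 0.055) and 0.27 without control replicate 2.

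**Figure D1:**
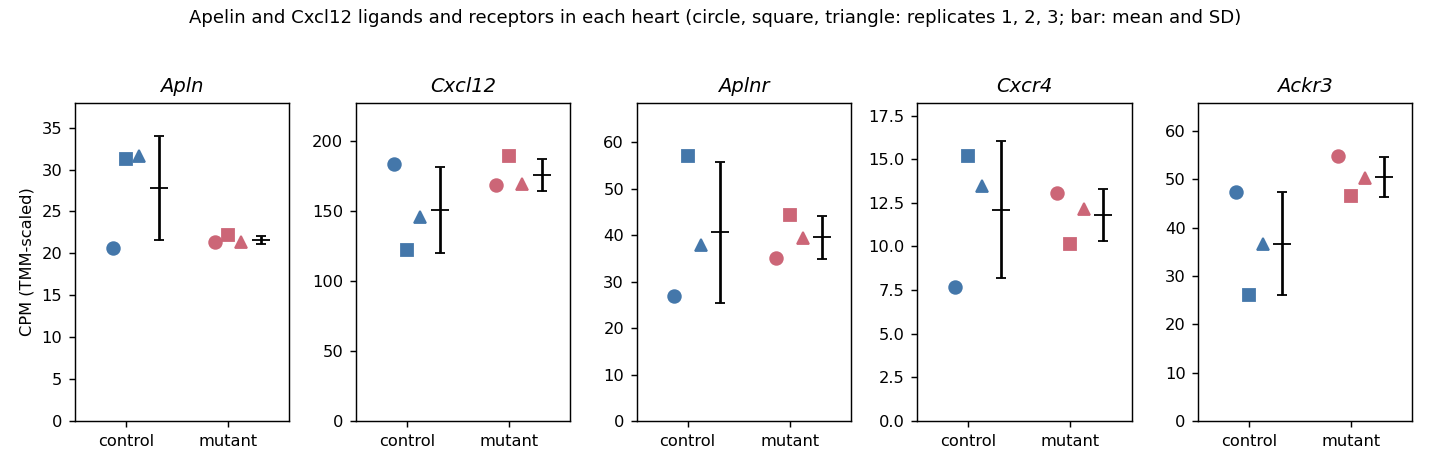
Level of each ligand and receptor in each heart, in TMM-scaled CPM on linear axes that start at 0. Points are hearts (circle, square and triangle for replicates 1, 2 and 3) and black bars are the mean and SD of 3 hearts. Control replicate 1 (blue circle) is the lowest control for Apln, Aplnr and Cxcr4 and the highest for Cxcl12 and Ackr3.

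Counted together, 0 of 5 members passed edgeR's adjusted threshold of 0.05, as did 0 of all 17125 tested genes (0% called). At an unadjusted p under 0.05, 1 of 5 members was higher (Ackr3) and 1 of 5 lower (Apln), beside 9.48% of tested genes higher and 9.98% lower. In 0 of 5 members did every mutant heart lie above, or every mutant heart below, all control hearts, whereas 14.3% of tested genes had all mutant hearts above and 12.8% all below. DESeq2 called 0 of 5 members and, of 17318 genes it tested, 2.52% higher and 3.26% lower. At 1 or 0 of 5 in each direction, these counts are not a result about the members.

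**Figure D2:**
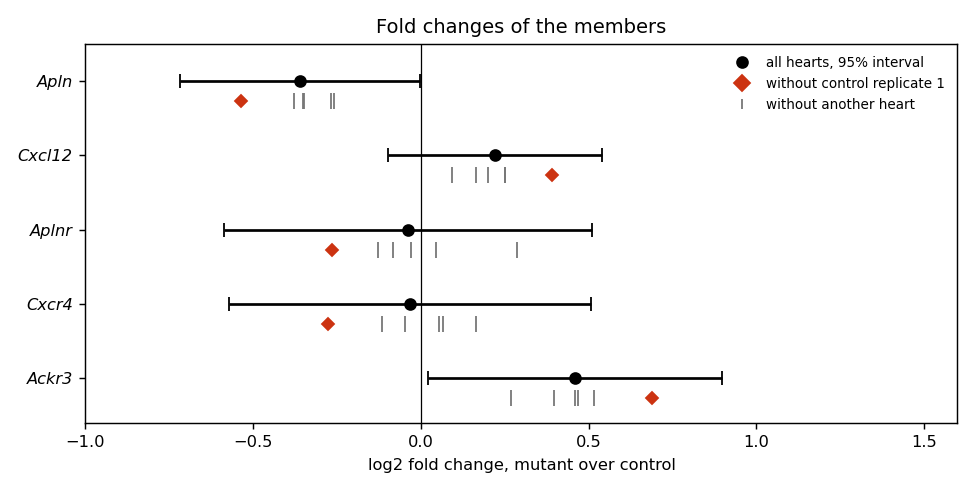
Log2 fold change of each member, mutant over control, with its 95% interval from edgeR on all 6 hearts (black), and the same value after leaving out 1 heart at a time (red diamond, without control replicate 1; grey bars, without any other heart). The interval lies below 0 for Apln and above 0 for Ackr3, while Aplnr and Cxcr4 have values on both sides of 0.

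Levels were compared between genes only per length, as reads per kb of exon per M counts (RPKM). Over the 6 hearts Cxcl12 had the highest level at 19.9 ± 3.06 RPKM, followed by Ackr3 at 13.03 ± 3.13, Aplnr at 10.8 ± 2.73, Apln at 7.85 ± 1.65 and Cxcr4 at 6.61 ± 1.47 (SD, n = 6). The ranges of each pair of neighbours in this order overlapped. Cxcl12 exceeded a larger share of tested genes (84.3%) than Cxcr4 did (61.2%), so even the lowest member lay in the upper part of the genes tested. Cxcl12 has 4 annotated transcripts, and dividing by its longest transcript in place of all its exon bases gave 29.0 RPKM.

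Ligand and receptor levels were also set against each other within each heart. The ratio of Apln to Aplnr (in RPKM) was 0.900, 0.643 and 0.979 in control hearts and 0.716, 0.589 and 0.637 in mutant hearts, so the receptor's transcript exceeded that of the ligand in 6 of 6 hearts. The ratio of Cxcl12 to its scavenger Ackr3 was 1.59, 1.93 and 1.63 in control hearts and 1.26, 1.66 and 1.38 in mutant hearts, and the ligand was the more abundant in 6 of 6. Both ratios overlapped between groups. The ratio of Cxcl12 to its signalling receptor Cxcr4 was 5.29, 1.78 and 2.39 in control hearts and 2.85, 4.12 and 3.08 in mutant hearts, and its highest and lowest values were both in controls. The ratio of Ackr3 to Cxcr4 was likewise widest in controls, with 3.33, 0.925 and 1.47 in control hearts against 2.27, 2.47 and 2.23 in mutant hearts. In control replicate 2 alone Cxcr4 exceeded Ackr3.

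Across the control hearts the members moved in opposite sets. Cxcl12 and Ackr3 were highest in control replicate 1 and lowest in control replicate 2, with control replicate 3 between them. Aplnr and Cxcr4 had the reverse order, and Apln was likewise lowest in control replicate 1. The closeness of 2 profiles was described by the root mean square (RMS) difference of log2(CPM + 1), each gene centred on its mean over the 6 hearts. It was 0.19 for Cxcl12 with Ackr3, and 0.22 for Apln with Cxcr4, 0.23 for Aplnr with Cxcr4 and 0.26 for Apln with Aplnr. Every pair with a gene from each set had a value of 0.45 (Apln with Cxcl12) or more, up to 0.62 (Aplnr with Ackr3). All these values share the same 6 libraries and are descriptions without a test.

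Control hearts also spread more widely than mutant hearts. The SD of log2(CPM + 1) was 0.34 in control against 0.030 in mutant hearts for Apln, 0.53 against 0.16 for Aplnr and 0.48 against 0.17 for Cxcr4. For Cxcl12 it was 0.29 against 0.094 and for Ackr3 0.42 against 0.12, so the control SD was the larger in 5 of 5 members. The same held for 65.5% of the 11779 tested genes with at least 5 CPM on average. Of the control hearts, replicate 1 came closest to the mean of the mutants in 3 of 5 members (Apln, Cxcl12 and Ackr3) and in 44.5% of those genes.

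Summed levels of several marker lists had the control order of one of these sets. The epicardial and the macrophage and leukocyte sums had that of Cxcl12 and Ackr3. The pericyte and smooth muscle sum (1578, 1850 and 1747 CPM in control hearts) had that of Aplnr and Cxcr4. Its most abundant gene, Acta2 (1003, 1281 and 1029 CPM), was the only gene of that list with this order. The order of Cxcl12 and Ackr3 was thus not particular to the endocardial list that follows. The 12 endocardial genes listed summed to 871, 636 and 764 CPM in control hearts and 933, 886 and 898 CPM in mutant hearts, in the control order of Cxcl12 and Ackr3. The 13 coronary and capillary endothelial genes summed to 1340, 1739 and 1704 CPM in control hearts and 1184, 1107 and 1104 CPM in mutant hearts, in the control order of Aplnr and Cxcr4. Of those 13 genes, 7 were lower and 0 higher at an unadjusted p under 0.05, among them Cd36, a fatty acid transporter of capillaries (292 ± 46.4 against 155 ± 22.6 CPM), and the transcription factor Meox2 (12.4 ± 4.14 against 5.86 ± 0.229 CPM; SD, n = 3 each). Over all tested genes 9.98% were lower and 9.48% higher at that p. The median log2 fold change of the 13 was -0.92, beside -0.0017 over all tested genes. DESeq2 called 7 of the 13 lower, beside 3.26% of all genes it tested. The list was chosen with earlier results of these data known, so these counts are a description and not independent support. Sums over the 15 pan-endothelial genes were 1487, 1290 and 1651 CPM against 1501, 1470 and 1431 CPM, and did not separate the groups. The embryonic globin gene Hbb-y also had its highest control level in replicate 1, with 453.8, 42.6 and 155.4 CPM in control hearts and 802.0, 1201 and 1127 CPM in mutant hearts. Hba-x, the other embryonic globin gene listed, had the same control order, whereas the other 7 of 9 erythroid genes had their lowest control level in replicate 1 and log2 fold changes below 0, as in Hbb-bs at -1.85 (2586, 5477 and 11910 against 1441, 1543 and 2571 CPM). What part the makeup or the stage of the hearts had in the members' values was not tested.

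**Figure D3:**
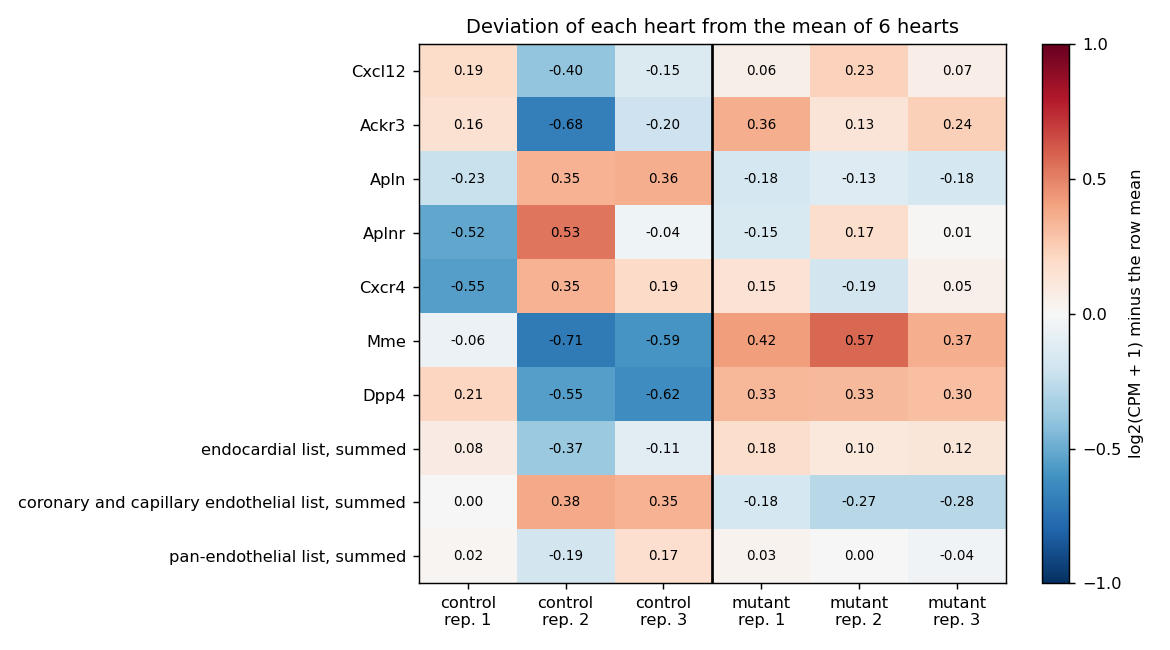
Deviation of each heart (columns) from the mean of the 6 hearts, in log2(CPM + 1), for the 5 members, the peptidases Mme and Dpp4 and the summed levels of 3 marker lists (rows), with red above and blue below the mean. Cxcl12 and Ackr3 stand at 0.19 and 0.16 in control replicate 1 and at -0.40 and -0.68 in control replicate 2, and Aplnr and Cxcr4 have the opposite signs in those hearts.

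Each member was next set against endothelial transcripts of the same heart. As the log2 of its CPM over the summed pan-endothelial list, Apln differed by -0.33 (exact two-sided permutation test, p = 0.4), Cxcl12 by 0.24 (p = 0.3), Aplnr by 0.024 (p = 0.9), Cxcr4 by 0.015 (p = 1) and Ackr3 by 0.50 (p = 0.2) between mutant and control hearts. The groups overlapped for all 5 members, and the smallest p that 3 against 3 hearts allow is 0.1. Against the coronary and capillary list in its place, whose own sum was lower in every mutant heart, the difference was 0.15 for Apln, 0.73 for Cxcl12, 0.51 for Aplnr, 0.50 for Cxcr4 and 0.99 for Ackr3. On that scale the groups no longer overlapped for Cxcl12, Cxcr4 and Ackr3 (exact permutation test, p = 0.1 for each). The lower sum of the list raised the ratio of every member in mutant hearts, so this separation is not a result about the members. Cxcr4 itself had a log2 fold change of -0.03. Apln had the opposite sign on the 2 scales.

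For each member, genes among the 3 tested ones with the most similar profile over the 6 hearts, among genes with at least 5 CPM, were named as a description. Apln lay nearest to Adcy9, an adenylyl cyclase (RMS difference 0.040), Pde2a, a cyclic nucleotide phosphodiesterase (0.053), and Urgcp (0.055). Cxcl12 lay nearest to Evc (0.045), Tek, the Tie2 receptor of endothelial cells (0.050), and Gm2a (0.051). Ackr3 had Aplp1 (0.066), Wnk4 (0.072) and Capn5 (0.078) as its nearest genes. The profile of Cxcr4 came near to Stk10 (0.098) and Sema3g, a secreted semaphorin (0.13), and that of Aplnr to Sbk1, Ccbl2 and Ccdc88c (0.14 to 0.15). The profiles of the receptors Aplnr and Cxcr4 were therefore matched less closely than those of the ligands.

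Of 29 further genes of the apelin and Cxcl12 pathways, 26 could be tested, and 0 passed edgeR's adjusted threshold. At an unadjusted p under 0.05, 3 were higher and 2 lower, and 6 had every mutant heart above and 2 every mutant heart below the controls. Over all tested genes the shares were 9.48% and 9.98% at that p, and 14.3% and 12.8% without overlap, so these counts of 26 are not a result about the pathways. Their median log2 fold change was 0.04, with 14 above 0 and 12 below. DESeq2 called 3 of them higher (Mme, Dpp4 and Arrb2) and 1 lower (Mef2a), beside 2.52% and 3.26% of all genes it tested. Cxcl11 and Cxcl14 had under 0.5 CPM in every heart and were not tested.

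Peptidases that act on the ligands had the largest values among those called by DESeq2. Mme encodes neprilysin, which cleaves apelin inside the 13-residue peptide printed above. It had 14.2, 8.65 and 9.45 CPM in control hearts and 20.0, 22.4 and 19.3 CPM in mutant hearts, with no overlap. The log2 fold change of Mme was 0.93 (SE 0.181), with an adjusted p of 0.083 from edgeR and 0.000107 from DESeq2. Dpp4, which removes the first 2 residues of Cxcl12 and thereby inactivates it, had 47.8, 27.6 and 26.3 CPM in control hearts and 52.0, 51.7 and 50.7 CPM in mutant hearts. The mutants lay within 2 CPM of each other, and control replicate 1 lay nearer to them than to the other controls. Its log2 fold change was 0.60 (SE 0.209), with an adjusted p of 0.19 from edgeR and 0.045 from DESeq2. Without control replicate 1 it was 0.93 for Dpp4 (edgeR adjusted p = 0.0040) and 1.19 for Mme (edgeR adjusted p = 0.0057). That fit called 320 tested genes higher and 431 lower. Leaving out any other heart gave edgeR adjusted p-values of 0.26 to 0.37 for Dpp4 and 0.15 to 0.24 for Mme. Furin, the protease that matures Apela among many precursors, had 162.1, 126.9 and 170.7 CPM against 171.0, 173.6 and 181.1 CPM (log2 fold change 0.19, edgeR adjusted p = 0.36).

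Among the other ligands, Apela had 4.89, 1.36 and 2.62 CPM in control hearts and 4.79, 6.35 and 4.72 CPM in mutant hearts. As for Ackr3, the groups overlapped through control replicate 1 alone. The log2 fold change of Apela was 0.82 (SE 0.391, edgeR adjusted p = 0.29), and it was 1.40 without control replicate 1 (edgeR adjusted p = 0.050, just above the threshold). Leaving out any other heart gave edgeR adjusted p-values of 0.34 to 0.51 for Apela. Adm encodes adrenomedullin, a vascular peptide that Ackr3 also scavenges, and had 6.52, 5.14 and 6.20 CPM against 4.69, 4.91 and 3.28 CPM. All its mutant hearts lay below the controls, with a log2 fold change of -0.46 (SE 0.189, edgeR adjusted p = 0.23, DESeq2 adjusted p = 0.20).

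Of the genes that act after the receptors, Arrb2 and Mef2a were called by DESeq2 and not by edgeR. The beta-arrestin gene Arrb2, whose product takes up activated receptors, had 11.7, 9.84 and 9.82 CPM in control hearts and 14.8, 14.0 and 13.3 CPM in mutant hearts (log2 fold change 0.43, SE 0.111, adjusted p = 0.12 from edgeR and 0.042 from DESeq2). Its paralog Arrb1 had a log2 fold change of 0.18 with overlapping groups. The receptor kinase genes Grk5 and Grk6 had all mutant hearts above the controls by small amounts, with log2 fold changes of 0.10 and 0.16 (edgeR adjusted p = 0.44 and 0.34). Mef2a, a transcription factor gene that acts downstream of apelin in endothelial cells and is also active in muscle, had 343.3, 398.0 and 346.8 CPM in control hearts and 293.0, 289.2 and 257.7 CPM in mutant hearts. Its log2 fold change was -0.37 (SE 0.093), with an adjusted p of 0.11 from edgeR and 0.0099 from DESeq2, while its relative Mef2c had -0.08. The G protein genes Gnai1, Gnai2, Gnai3 and Gna13 lay between -0.09 and 0.03.

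**Figure D4:**
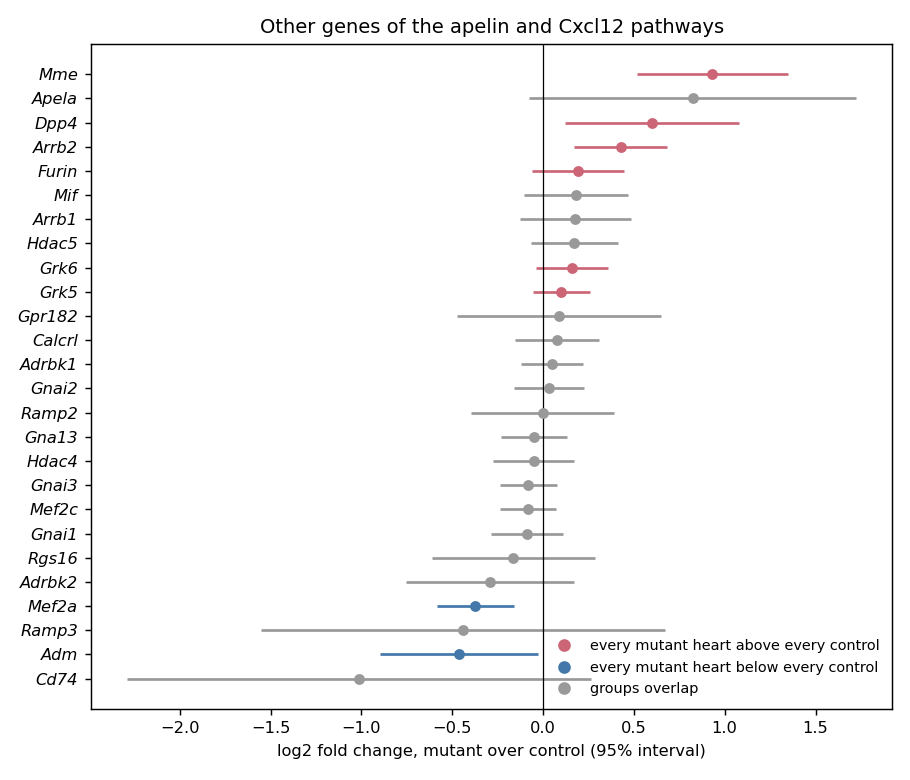
Log2 fold change, mutant over control, with its 95% interval from edgeR for the 26 tested further genes of the apelin and Cxcl12 pathways, ordered by size. Red points mark the 6 genes with every mutant heart above every control, blue points the 2 with every mutant heart below, and grey points overlapping groups; Mme at 0.93 and Adm at -0.46 stand near the ends.

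Other chemokine ligands and receptors were counted next. Of 15 listed, 9 could be tested and 0 passed edgeR's adjusted threshold, with 1 higher (Cx3cr1) and 1 lower (Ccr2) at an unadjusted p under 0.05. Over all tested genes the shares at that p were 9.48% and 9.98%, so these counts are not a result about the list. Cx3cr1, a receptor of resident macrophages, had 10.3, 7.73 and 8.27 CPM against 11.6, 11.3 and 10.6 CPM (log2 fold change 0.35, edgeR adjusted p = 0.21). All mutant hearts lay below the controls for the atypical receptor Ackr2, with 1.497, 1.63 and 2.22 CPM against 1.16, 1.43 and 0.752 CPM (log2 fold change -0.66, edgeR adjusted p = 0.27). The monocyte receptor gene Ccr2 had 1.71, 3.78 and 3.36 CPM against 1.02, 1.20 and 1.91 CPM, a log2 fold change of -1.12 with an adjusted p of 0.17 from edgeR and 0.041 from DESeq2.

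Further vessel markers were read beside the members, with the same 9.48% higher and 9.98% lower over all tested genes as background for the counts. Of 14 tip cell genes, the leading cells of sprouts in which Apln is known to be made, 2 were higher (Nid2 and Unc5b) and 2 lower (Angpt2 and Cd34) at an unadjusted p under 0.05, with a median log2 fold change of -0.15 that turned to 0.048 without control replicate 3. Angpt2, a ligand of Tie2, had the largest of these at -1.66 (4.02 ± 2.93 against 1.25 ± 0.234 CPM, SD, n = 3 each; DESeq2 adjusted p = 0.0056). Of 12 arterial genes, 4 were higher and 0 lower. Gja5, a gap junction gene of arteries and of the conduction system, was at 0.54 (115.3 ± 24.4 against 168.2 ± 9.73 CPM, edgeR adjusted p = 0.12, DESeq2 adjusted p = 0.0073). The paper uses its product Cx40 as a marker of trabecular myocardium and also shows it in coronary arteries. Whole-heart counts do not separate these sources. Of 7 venous and sinus venosus genes tested, 1 was higher (Nr2f2, 0.28) and 1 lower (Nrp2, -0.48). Because Apln is known to be induced by low oxygen, 12 hypoxia-induced genes were also counted. At an unadjusted p under 0.05, 5 of them were lower (Egln3, Ndrg1, Adm, Pdk1 and Egln1) and 0 higher, with a median log2 fold change of -0.25 and DESeq2 calls for 3. What part oxygen supply had in the level of Apln was not tested.

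Lists for other cells of the heart that can hold these transcripts gave medians nearer to 0 than the coronary list, except that of red cells. The median log2 fold change was 0.25 for the 12 endocardial genes (2 higher, Sema3c and Hapln1, and 0 lower at an unadjusted p under 0.05), 0.21 for the 11 epicardial genes, -0.0031 for the 9 fibroblast and mesenchymal genes and -0.21 for the 10 pericyte and smooth muscle genes. Over all tested genes 9.48% were higher and 9.98% lower at that p, which is the background for the counts of these lists. At the same p, 3 of the 9 fibroblast genes were lower (Dcn, Postn and Lum, all called by DESeq2) and 0 higher. Of the 10 pericyte and smooth muscle genes 3 were lower and 1 higher, Cnn1, and DESeq2 called all 4. Those lower were Kcnj8, Myh11 and the pericyte gene Rgs5, which had 44.2, 99.95 and 100.8 CPM in control hearts and 12.8, 11.1 and 16.1 CPM in mutant hearts (log2 fold change -2.62). Among the epicardial genes 3 were higher and 1 lower. The median was 0.049 for the 12 macrophage and leukocyte genes, which summed to between 97.1 and 132.0 CPM, -0.14 for the cardiomyocyte genes, -0.03 for the pan-endothelial genes and -0.07 for the 3 tested neural crest and glial genes. For the 3 liver genes tested it was -0.59. The 9 erythroid genes had a median of -1.27, or -0.54 without control replicate 3, and summed to 9298, 17130 and 39400 CPM in control hearts and 6429, 7571 and 11450 CPM in mutant hearts. Control replicate 1 had the lowest erythroid sum of the controls and lay within the range of the mutant hearts.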

How the data were processed

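The authors mapped paired-end reads from whole e13.5 hearts to GRCm38 with STAR 2.4.2a, using GENCODE vM6, and summarizeOverlaps did the counting. The deposited counts are raw and not normalized, and the strand and overlap settings are not given in the sources used here. No annotated gene overlaps a member. A second deposited table gave symbols and a mean normalized signal per gene, which was within 1% of the value recomputed from the counts for all 26306 genes and shows that the tables hold the same samples. It also holds the authors' log2 fold changes and p-values from DESeq2, which were not used.

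Counts were fitted with edgeR 4.0.16 (limma 3.58.1, R 4.3.3; filterByExpr with a minimum count of 10 and total of 15, TMM scaling, condition as the only term, quasi-likelihood test, Benjamini-Hochberg adjustment over 17125 genes, threshold 0.05). Alternatives were DESeq2 1.42.0, RLE size factors, other filters, thinning to 28948836 counts, leaving out each heart, and a replicate block. The steps were tested on simulated data. RPKM used all exon bases of GENCODE vM21. All pairs of libraries differed by more than counting noise. Precision was limited by the spread between hearts (biological coefficient of variation 0.153) more than by depth.

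The members, lists and tests were chosen with earlier results of these data known. Named genes were the members, Ino80, pathway and chemokine genes whose groups do not overlap, marker genes with an unadjusted p under 0.05 or high levels, and the 3 most similar genes per member. Apela, Arrb1, Mef2c, Hbb-y and the G protein genes, and the marker genes given with values, were chosen after their values were seen. Lists were compiled from general knowledge. The results of 2 genes that this rule covers are not reported here.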

Additional observations from a re-analysis of the deposited data

How the results depend on the processing

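Apln, Cxcl12 and Ackr3 kept the sign of their log2 fold changes under every alternative run. Leaving out each heart in turn gave -0.54 to -0.26 for Apln (called only without control replicate 1), -0.26 to 0.29 for Aplnr and -0.28 to 0.17 for Cxcr4, and relative to pan-endothelial transcripts -0.25 to 0.40 for Aplnr and -0.29 to 0.30 for Cxcr4. Over the same fits the genes called ranged from 0 to 320 higher and 0 to 431 lower, and the further pathway genes from 0 to 3 higher. DESeq2 called 436 genes higher and 564 lower, among them 3 pathway genes higher and 1 lower. Keeping all genes with at least 1 count gave 262 higher and 341 lower, with 1 pathway gene higher. Relative to the coronary and capillary list, whose own sum was lower in every mutant heart, Apln changed sign to 0.15. Without control replicate 3 the median log2 fold changes of the tip cell (0.048), venous (0.040), pan-endothelial (0.065), fibroblast (0.18) and neural crest (0.034) lists lay above 0, and that of the erythroid list was -0.54. The macrophage list lay between -0.075 and 0.16 and the liver list between -0.81 and 0.033 when 1 heart was left out. With the longest transcript as its length, Cxcl12 had 29.0 RPKM. The causes were not tested.

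Same-numbered hearts did not deviate together (correlations of 0.0030, -0.12 and -0.11), so the number was not taken as a pairing. With the replicate block, Aplnr was at 0.022 and Cxcr4 at 0.014, and 1 gene was called higher and 13 lower.

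With 3 hearts a group and a wide spread among control hearts, the intervals of Aplnr and Cxcr4 hold changes of over 0.5 (log2) in either direction. Vessel cells are only a share of a whole heart, so their changes are diluted to an extent that was not measured.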
